A study of Rattus norvegicus with 2 samples.

Results

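The genes described here encode granule proteins, cytosolic proteins and a growth factor receptor of neutrophils. The 10 genes listed were S100a8, S100a9, Lcn2, Mmp8, Ngp, Csf3r, Mpo, Elane, Camp and Ltf. They were chosen by function with their cocaine over control ratios on these same arrays already known, so every ratio below is a description of the values that chose them. In addition, Lcn2 had been listed by the study itself for its rise on these arrays. Of the 10 genes, 9 had a probe set carrying their symbol, out of 15037 named genes on the array, and Mpo had none. Each of the 9 was measured by 1 probe set.

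Total RNA labelled as left ventricle came from male SD (Sprague Dawley) rats, 8 weeks old, with 1 array for cocaine and 1 for the control. The number of rats behind each array was not given in the sources used here. Cocaine (20 mg/kg/day) was injected by tail vein over 14 days. The labels describe the control as not stimulated, whereas the methods describe saline given on the same schedule. With 1 array per condition there was no replicate, so no value has an SD or a p-value, no comparison was tested, and precision is limited by there being so few arrays.

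Neutrophils store antimicrobial proteins in granules that are filled in sequence while the cell matures in the bone marrow. Azurophil granules, made first, hold myeloperoxidase and neutrophil elastase, specific granules hold lactoferrin and cathelicidin, and gelatinase granules are made last. The cytosol of the mature cell is rich in calprotectin, the complex of S100a8 and S100a9. Transcripts of the early granule proteins are found mainly in marrow precursors and are scarce in circulating neutrophils, while S100a8 and S100a9 transcripts persist there.

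Expression was measured on Clariom S arrays, on which a set of short probes reports each transcript as a normalized intensity on a linear scale. As no detection calls were used here, a background limit was set for each array from 131 receptor genes of nasal sensory neurons (olfactory or vomeronasal), at their 95th percentile. This limit was 62.5 for cocaine and 77.1 for the control. Of the 9 measured genes, 5 lay above it on both arrays (S100a8, S100a9, Lcn2, Mmp8 and Csf3r), and 4 lay under it on both (Ngp, Elane, Camp and Ltf). Over all named genes, 64.4% lay above it on both arrays and 31.5% under it on both. All 5 members above the limit had a higher intensity on the cocaine array, as had 58.0% of the 10300 genes above it on at least 1 array.

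S100a8, a calcium-binding subunit of calprotectin, had an intensity of 501 with cocaine and 208 in the control. The cocaine value was 2.40-fold higher, a log2 ratio of 1.27. S100a9, its partner subunit, had 2294 with cocaine and 985 in the control, 2.33-fold higher with a log2 ratio of 1.22. The ratios of the partner genes, which lie next to each other on chromosome 2, thus differed by 0.046 on the log2 scale.

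Of the 4 members listed here as specific granule genes (Lcn2, Ngp, Camp and Ltf), Lcn2 was the one above the limit. It encodes lipocalin 2, which binds the iron carriers of bacteria and is also secreted by epithelial cells in inflammation. Its intensity was 13039 with cocaine and 3589 in the control, or 209 and 46.5 times the respective limit. The cocaine value was 3.63-fold higher, a log2 ratio of 1.86, which ranked 9 among all named genes ordered by ratio.

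The other 3 of these members, Ngp, Camp and Ltf, gave no signal above the limit on either array. Ngp, which encodes neutrophilic granule protein, had intensities of 25.01 with cocaine and 12.3 in the control. Camp, which encodes the antimicrobial peptide cathelicidin, had 10.9 and 8.56. Ltf, which encodes the iron-binding protein lactoferrin, had 21.1 and 28.9. Since both values of each gene lay in the range of the receptor genes, no fold is given for them, and their ratios enter only the median over the members and a count made without a filter on level.

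Mmp8, which encodes neutrophil collagenase and was listed here with the gelatinase granule genes, had 162 with cocaine and 79.5 in the control. The cocaine value was 2.04-fold higher, with a log2 ratio of 1.03. The control value lay at 1.03 times the limit, so that this ratio rests on a control signal barely distinct from background. Under the 99th percentile of the receptor genes, 119 on the control array, Mmp8 in the control was below the limit.

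Elane, which encodes neutrophil elastase, had 25.6 with cocaine and 24.5 in the control, under the limit on both arrays. With Mpo not measured, no azurophil granule member of the 10 gave a signal above background. Of the 6 measured members that encode granule proteins (Lcn2, Mmp8, Ngp, Elane, Camp and Ltf), 2 were above the limit and 4 were not.

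Csf3r encodes the receptor of granulocyte colony-stimulating factor, which drives neutrophil production and survival. Its intensity was 263 with cocaine and 166 in the control, 4.22 and 2.15 times the limit. The cocaine value was 1.59-fold higher, a log2 ratio of 0.67. It was the member with the smallest ratio among the 5 above the limit.

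**Figure D1:**
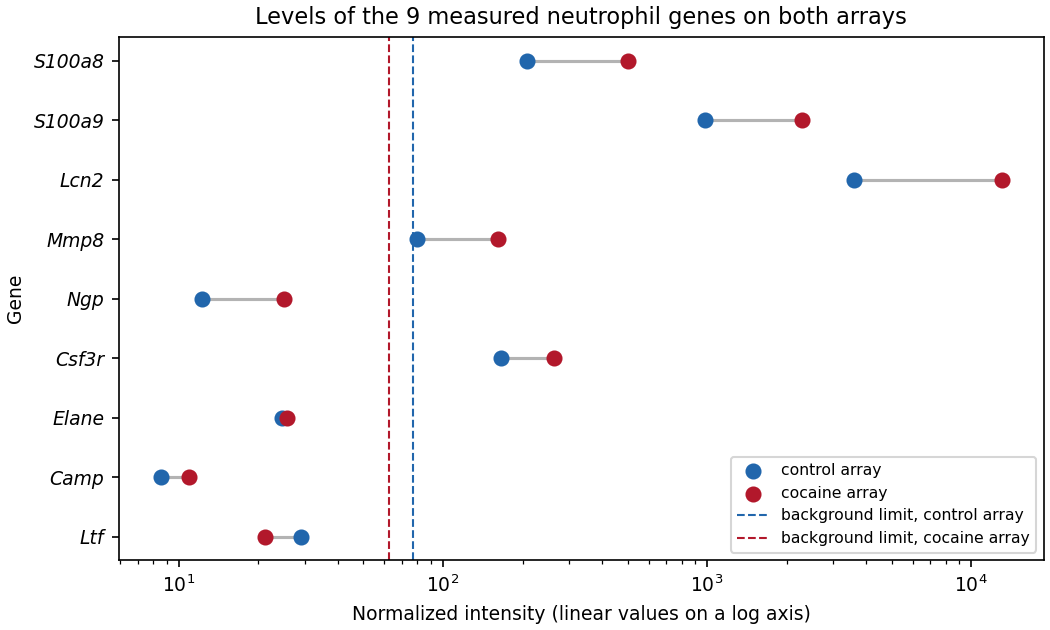
Normalized intensity (log axis) of the 9 measured neutrophil genes, with 1 point for the cocaine array and 1 for the control array and a dashed line for the background limit of each. Lcn2, S100a9, S100a8, Csf3r and Mmp8 lie above the limits with the cocaine point to the right, and Ngp, Elane, Camp and Ltf lie below both lines.

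A second measure of background came from 23 control probe sets of the array that are grouped by the number of G and C bases in their probes. Their intensities ran from 5.70 to 277 with cocaine and from 5.70 to 252 in the control. Lcn2, S100a9 and S100a8 exceeded all of them on the cocaine array, and Lcn2 and S100a9 did so on the control array. These were 3 and 2 of the 9 measured members. Taking every named gene, 48.6% passed this mark with cocaine and 49.7% without it, both larger shares than among the members. Mmp8 and Csf3r lay within their range on both arrays. The 11 control sets with 8 to 18 G or C bases reached at most 45.4 and 38.4.

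The sizes of these ratios can be read against all genes. Over the genes above the limit on both arrays, the central 95% of log2 ratios ran from -0.61 to 0.68, and the median over all named genes was 0.02. Lcn2, S100a8, S100a9 and Mmp8 lay outside that range, and Csf3r lay inside it at 0.67. Dim genes spread more widely than bright ones. With the 10300 genes above the limit on at least 1 array split by mean level into 4 equal bands, the central 95% ran from -0.80 to 0.81 in the dimmest band, which held Mmp8 and Csf3r. In the brightest band, which held Lcn2, it ran from -0.45 to 0.57.

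Of the 10300 genes above the limit on at least 1 array, 76 (0.738%) were at least 2-fold higher with cocaine, and 4 of the 5 members above the limit were among them. As the ratios were known when the members were chosen, nothing is read from that count. With low values on both arrays raised to the higher limit the share was 0.505% with the same count of 4. With genes at or above the median of an array it was 0.557% with 3 of 4 members. Without a filter it was 0.698%, with 5 of the 9 members, which then included Ngp from values in the range of background. Among the members above the limit, Mmp8 lay just past the 2-fold line at a log2 ratio of 1.03. Csf3r fell well short of it at 0.67, or 1.59-fold.

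**Figure D2:**
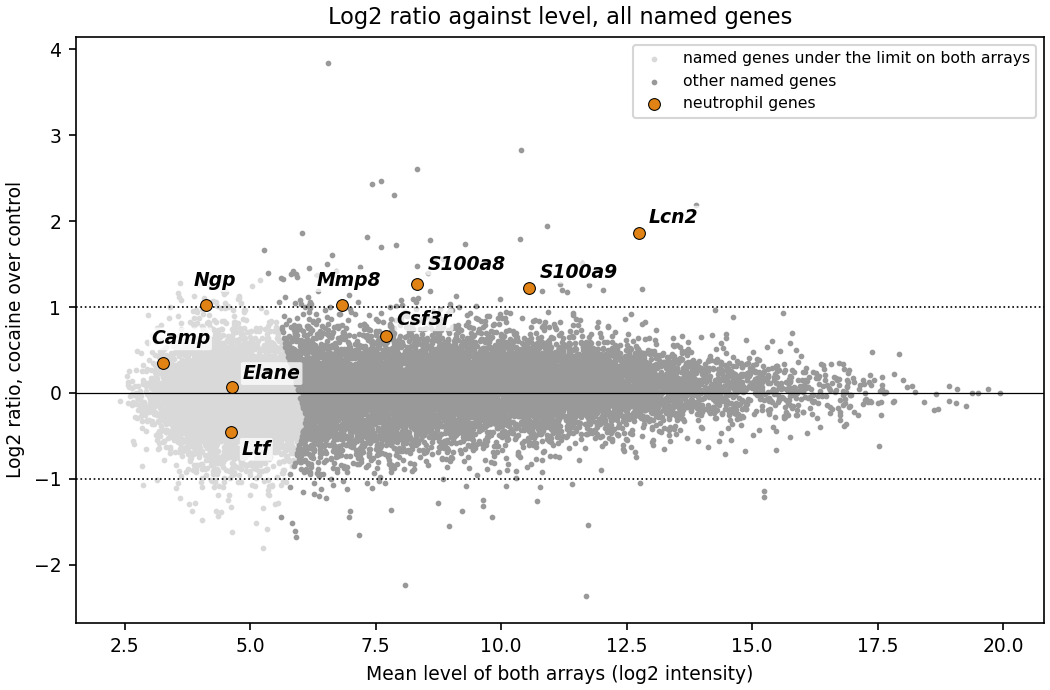
Log2 ratio of cocaine over control against the mean log2 intensity of both arrays, with 1 point per named gene and the 9 neutrophil genes in orange. Light points are genes under the limit on both arrays, and dotted lines mark 2-fold. Lcn2 at 1.86, S100a8 at 1.27 and S100a9 at 1.22 lie above the cloud at their level, Mmp8 at 1.03 lies at the 2-fold line, and Csf3r at 0.67 lies at the edge of the cloud.

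Of the 10 members, 8 had an entry in the RefSeq table of promoters (assembly GRCr8), and S100a8 and Elane had none. The 250 bases before the annotated start are shown for the 4 members that were above the limit and had an entry, since these carry the differences described above. They belong to S100a9 (chr2:178490623-178490872, minus strand), Lcn2 (chr3:36081781-36082030, minus strand), Mmp8 (chr8:13008640-13008889, plus strand) and Csf3r (chr5:143582970-143583219, plus strand). Capitals mark matches to the motifs named in the next paragraph.
S100a9: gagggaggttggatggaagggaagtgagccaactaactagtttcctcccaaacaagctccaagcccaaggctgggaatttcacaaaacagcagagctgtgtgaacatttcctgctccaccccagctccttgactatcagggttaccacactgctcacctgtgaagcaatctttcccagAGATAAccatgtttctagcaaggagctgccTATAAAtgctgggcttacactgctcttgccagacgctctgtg
Lcn2: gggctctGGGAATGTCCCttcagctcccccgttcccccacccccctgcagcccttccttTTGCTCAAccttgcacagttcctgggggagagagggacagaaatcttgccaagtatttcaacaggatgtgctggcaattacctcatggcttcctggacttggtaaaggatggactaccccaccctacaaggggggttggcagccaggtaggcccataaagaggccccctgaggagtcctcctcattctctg
Mmp8: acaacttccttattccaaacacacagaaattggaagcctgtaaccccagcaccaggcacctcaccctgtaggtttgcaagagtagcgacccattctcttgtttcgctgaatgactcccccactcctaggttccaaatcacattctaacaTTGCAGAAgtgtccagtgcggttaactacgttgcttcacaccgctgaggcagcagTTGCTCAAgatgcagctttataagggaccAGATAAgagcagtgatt
Csf3r: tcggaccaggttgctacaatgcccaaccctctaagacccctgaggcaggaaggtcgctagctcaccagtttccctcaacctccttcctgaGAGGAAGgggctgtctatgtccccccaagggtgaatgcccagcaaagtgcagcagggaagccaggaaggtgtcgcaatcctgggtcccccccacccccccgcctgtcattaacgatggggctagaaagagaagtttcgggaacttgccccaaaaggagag

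The motifs were those of C/EBP factors (TTGCNNAA), which drive granulocyte maturation, PU.1 (GAGGAAG), a factor of the myeloid lineage, NF-kB (GGGA and CC with 4 bases between), the inflammatory factor, and GATA factors (AGATAA), all searched on both strands, and the TATA box (TATAAA) on the gene strand. The C/EBP letters occurred upstream of Lcn2, Mmp8 and Ngp, 3 of the 8 members, against 9.22% of all 33469 promoters. The NF-kB letters occurred upstream of Lcn2 alone, where matches on both strands overlapped from -243 to -233, against 16.4% of all promoters. PU.1 letters occurred in Csf3r and Mpo (10.2% of all), GATA letters in S100a9 and Mmp8 (10.3%), and the TATA box in S100a9 (8.06%). Camp and Ltf held none of them. These are matches of letters, not binding sites.

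The genes beside the members on their chromosomes were read as well. Among the 2 nearest measured genes on each side, 32 genes were not members, and 22 of them were above the limit on at least 1 array. None was 2-fold higher, 16 were higher and 16 lower, and their median log2 ratio was 0.01. With a share of just 0.738% among the 10300 genes past the limit, finding none in 22 tells nothing. Member ratios were known when the list was made, so the neighbours are not set against them. Next to Lcn2, Golga2 had a log2 ratio of 0.05, Dnm1 -0.11, Ptges2 0.15 and Slc25a25 0.16. S100a6, near S100a8, had 0.21, while S100a7a, Pglyrp4 and S100a7l2 were under the limit on both arrays. The matrix metalloproteinase genes around Mmp8, which are Mmp1, Mmp10, Mmp27 and Mmp20, were all under it on both arrays too.

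**Figure D3:**
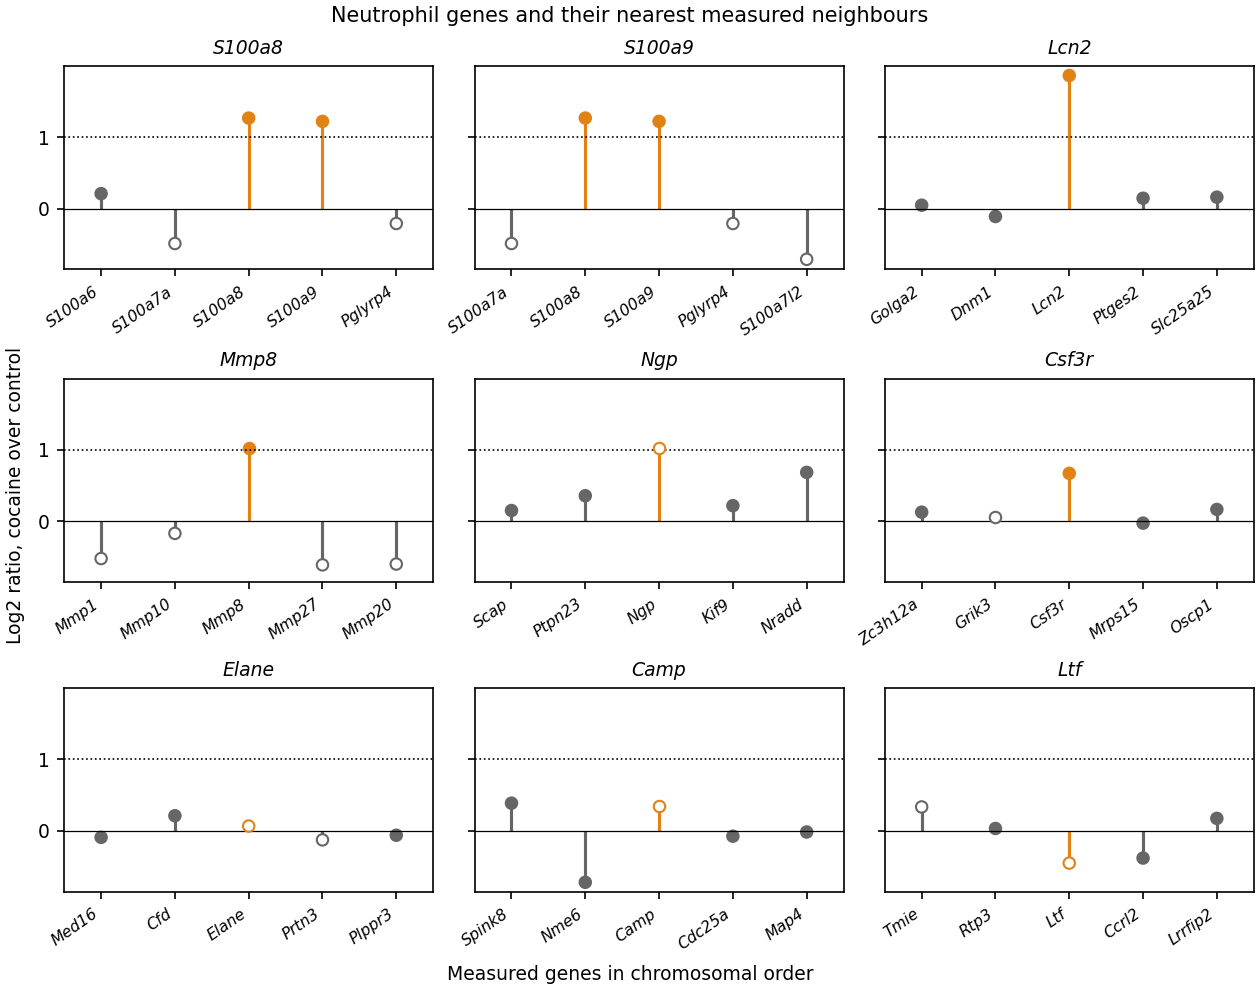
Log2 ratio of cocaine over control for each measured neutrophil gene (orange) and its 2 nearest measured neighbours on either side (grey) in chromosomal order, with open points for genes under the limit on both arrays and a dotted line at 2-fold. Only S100a8 and S100a9 have a neighbour past the dotted line, which is the partner gene.

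Other genes listed for the same compartments were mostly close to equal on the arrays. Among the 25 measured genes of the granule lists that were not members, 14 were above the limit, and of these 4 were higher and 9 lower. None was 2-fold apart, and the median log2 ratio over all 25 was -0.06. Lyz2, which is also in the list of epithelial antimicrobial genes, had 740607 on both arrays. Which cells gave the values of these genes was not tested, so they do not stand for neutrophils alone. The azurophil genes Prtn3, Ctsg, Prss57 and Bpi were under the limit on both arrays, as was Mmp9, the gelatinase that names its granule. Fcnb, which encodes a ficolin stored in granules, had 3069 with cocaine and 2430 in the control, a log2 ratio of 0.34. Itgam, which encodes the CD11b chain of the adhesion receptor Mac-1, had 100.4 and 152, a log2 ratio of -0.60. For the oxidase, Cybb, which is counted among the 25, had a log2 ratio of -0.06. Rac2, which is not counted among them, had -0.68.

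Among the 26 other measured receptor genes, 24 were above the limit, and of these 14 were higher and 10 lower. The median log2 ratio over all 26 was 0.11. Cxcr1, a receptor for neutrophil-attracting chemokines, had 438 with cocaine and 246 in the control, a log2 ratio of 0.83. Hcar2, a metabolite receptor of myeloid cells, had 146 and 92.5, a ratio of 0.66 that is close to the 0.67 of Csf3r. Clec4d, a lectin receptor of myeloid cells, had 97.1 with cocaine and 37.2 in the control, where it was under the limit, and was at least 1.26-fold higher against that limit. Among 19 attractants and growth factors, 13 were above the limit, 9 had the higher value with cocaine and 10 in the control, and the median ratio was 0.00. The one that was 2-fold higher, Il1b, an inflammatory cytokine, had 727 and 354, a log2 ratio of 1.04. Genes of granulocyte transcription factors were lower in 8 of 10 cases, with Cebpb at -0.52 and Cebpa at 0.33.

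Within the gene families of the members, ratios were uneven. Of 16 measured S100 genes, S100a8 and S100a9 were the 2 that were 2-fold higher, followed by S100a4 at a log2 ratio of 0.58, and the median was 0.16. Of 13 measured lipocalins and of 19 matrix metalloproteinases, Lcn2 and Mmp8 were each the only gene that was above the limit and 2-fold higher. Over all genes above the limit on at least 1 array, 0.738% were 2-fold higher. As the members were chosen with their ratios known, nothing is read from these family counts. Among the receptors through which extracellular S100a8 and S100a9 signal, Tlr4 had a log2 ratio of -0.41 and Ager 0.01.

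Both arrays were bright for genes of lung epithelium, and this bears on the label of the tissue. All 19 measured lung epithelium genes were above the limit on both arrays, with a summed intensity of 3.61e+06 with cocaine and 3.59e+06 in the control. Of 23 measured cardiomyocyte genes, 19 passed the limit with cocaine and 13 in the control. All 23 summed to 55658 and 36512, of which Atp2a2 alone had 28671 and 18344. The ventricular gene Myl2 was bright on both arrays, with 6344 and 7778. Myh7, Myl3 and Nppb were under the limit on both, and Myh6 had no named probe set. The largest ratios of the list were those of Tnnt2, Mb, Myl7 and Actn2. Tnnt2 had 457 with cocaine and 82.8 in the control (log2 ratio 2.46), and Myl7 had 3783 and 987 (1.94). Mb and Actn2 were under the limit in the control, and were at least 5.16-fold and 1.62-fold higher against that limit. Cardiomyocyte genes were higher with cocaine in 18 of 23 cases, against 52.4% of all named genes. With values under the higher limit (77.1) raised to it on both arrays, 8 were at least 2-fold higher, against 12 by the values as deposited. Over the 10300 genes above the limit on at least 1 array, these shares were 0.505% and 0.738%.

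Markers of other blood cells differed between the arrays as well. Red blood cell genes were higher with cocaine in 13 of 15 cases, with a median log2 ratio of 0.48 and summed intensities of 518609 and 405115. Of the 15, 5 were under the limit on both arrays. Of all named genes, 52.4% were higher with cocaine. Monocyte and macrophage genes, whose cells also make S100a8 and S100a9, were lower in 15 of 21 cases. Their sum was 81915 with cocaine and 78006 in the control, but 31604 and 35804 without Lyve1, a gene that lymphatic endothelium also expresses. The largest ratio of this list went the other way. Vsig4 had 171 with cocaine and 64.0 in the control, where it was under the limit, and was at least 2.22-fold higher against that limit. T and NK cell genes were lower in 16 of 22 cases (sums 20881 and 35448). The 4 at least 2-fold lower were Gzma at -1.53, Nkg7 at -1.45, Il2rb at -1.09 and Prf1 at -1.05. Over the 10300 genes above the limit on at least 1 array, 40 were 2-fold lower. Cd3d, Cd3e and Cd3g had -0.08, -0.23 and 0.08. B and plasma cell genes were lower in 6 of 7 cases (9039 and 12842). Eosinophil and basophil genes had a median of 0.07, and 8 of the 15 measured were under the limit on both arrays. Of that list 10 were higher and 5 lower, and Alox15, at 2.30, was the only one above the limit and 2-fold higher. The part of each of these cell types in the values of the members was not tested. In bulk tissue, a different number of cells of a type and a different amount of RNA per cell cannot be told apart.

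**Figure D4:**
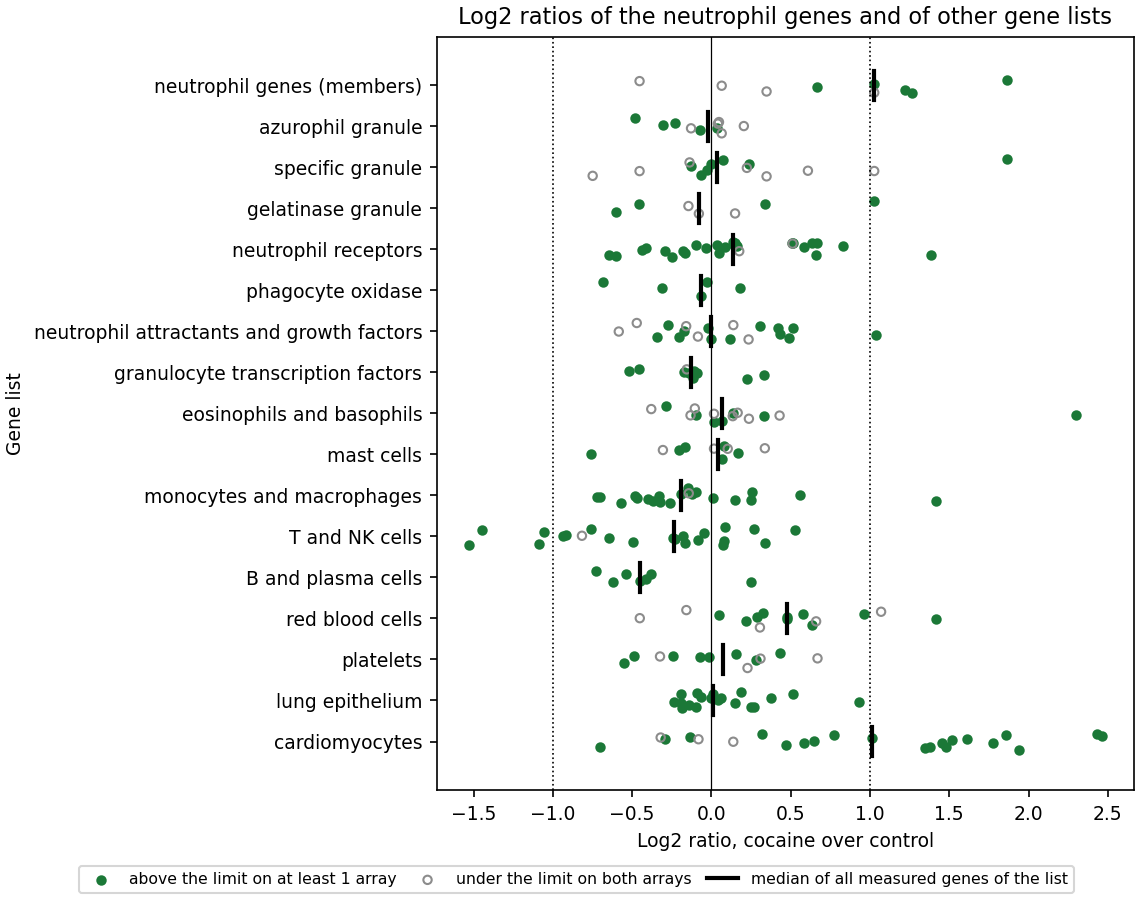
Log2 ratio of cocaine over control for each measured gene of the neutrophil list and of other lists, with filled points for genes above the limit on at least 1 array, open points for genes under it on both, black bars for list medians and dotted lines at 2-fold. The median was 1.03 for the neutrophil genes, which were chosen with these ratios known and of which 4 were under the limit, -0.02 for azurophil, 0.04 for specific and -0.08 for gelatinase granule genes, and 1.01 for cardiomyocyte genes, 3 of which were under it on both arrays.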

How the data were processed

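The deposited values were normalized intensities, linear in scale, with 1 value for each probe set on each array. MAS5 is named in the submitters' processing notes and the Transcriptome Analysis Console in the study's methods. Versions, genome build and annotation were not given in the sources used here. Of 24834 probe sets, 15049 had 1 symbol in the platform annotation and gave 15037 genes. Values ran from 4.50 to 999971 on the cocaine array (median 180.9) and from 4.91 to 999971 on the control array (median 181.6). The log2 of each value was taken without a pseudocount, probe sets that shared a gene were averaged, and the control was subtracted from the cocaine value.

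The background limit took symbols starting with Olr or Vom. Most olfactory receptors carry newer names, so a wider panel of 1155 genes was added after seeing the data. Where low values were raised to the limit, the higher limit (77.1, that of the control array) was used on both arrays.

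The members, the 25 other lists and the rules were chosen with earlier results of these data known. Named were all members, in each list up to 4 genes with the largest ratio among those above the limit, and 2 measured neighbours per side. Prtn3, Ctsg, Prss57, Bpi, Mmp9, Lyz2, Myl2, Myh7, Myl3, Nppb, Atp2a2, Sftpc, Cd3d, Cd3e, Cd3g and Lyve1 were named after their values were seen. The RefSeq tables (GRCr8) gave gene order and promoters. Of the motifs, the TATA box was added after the design was set and the letters of all motifs were chosen after it. For NF-kB a narrower pattern was also run once and set aside in favour of the first one searched. It gave a match in S100a9 as well as in Lcn2.

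The alternatives were median centring, quantile normalization, loess (span 0.3), floors for low values, other limits and filters, 1.5-fold, and the highest probe set. The steps were tested on simulated data. Python 3.11.15, numpy 2.4.6, pandas 2.3.3, statsmodels 0.14.6 and matplotlib 3.10.9 were used.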

Additional observations from a re-analysis of the deposited data

How the results depend on the processing

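Across centring, quantile normalization, loess, both floors for low values and the choice of probe set, the log2 ratio ran from 1.79 to 1.86 for Lcn2, from 1.23 to 1.27 for S100a8, from 1.14 to 1.22 for S100a9, from 1.01 to 1.06 for Mmp8 and from 0.65 to 0.67 for Csf3r. The median over the 9 measured members was 1.03 and moved to 0.67 with low values raised to the higher background limit and to 0.67 with a floor at each array's 25th percentile, since members under the floor then had no ratio of their own. With the latter floor the ratio of Ngp, whose values lie in the range of background, turned from positive to -0.099, which is the gap between the floors of the arrays. The count of members at least 2-fold higher was 4, became 3 with the filter at the median or without Lcn2, and 5 with no filter or at 1.5-fold. Without Lcn2 the median was 0.85. With the 99th percentile limit, 4 members in place of 5 were above background on the control array. Filters, limits and thresholds do not enter the median or single ratios. No paired analysis was possible because there is 1 array per condition, and for the same reason no array could be left out. Signal over background limits Mmp8 most, and Ngp, Elane, Camp and Ltf have levels only as an upper bound.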

Other observations

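Genes that act beside the neutrophil genes gave a mixed picture. Of 25 measured epithelial antimicrobial and acute phase genes, 10 were higher with cocaine and 14 lower, and 3 were at least 2-fold higher. Besides Lcn2 these were Bpifa1, a secreted protein of airway epithelium, with an intensity of 3614 against 509 (log2 ratio 2.83), and Retnla, a resistin-like secreted protein, with 10853 against 4681 (1.21). Lbp, which encodes the lipopolysaccharide-binding protein, had 897 against 1786 (-0.99). Of 13 protease inhibitor genes, which include antagonists of granule proteases, 7 were higher and 6 lower. Serpina3n had 353 against 109.1 (1.70), while Serpinb1a, which encodes an inhibitor of elastase, had 4512 against 5581 (-0.31).

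Iron handling genes, the pathway of Lcn2, were higher in 10 of 16 cases and lower in 5. Steap4, a metalloreductase, had 460 against 252 (0.87), and Slc40a1, the iron exporter ferroportin, had a log2 ratio of 0.60. Among 9 measured genes of endothelial adhesion, which neutrophils use to leave the blood, 5 were higher and 4 lower. Vcam1 had a ratio of 0.66 and Icam1 -0.13. Each of these values describes 1 array per condition and was not tested.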
